A study of Homo sapiens with 34 samples.

Results

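NFE2, NFE2L2, MAF, MAFG, MAFK, BACH1 and BACH2 belong to the NFE2, MAF and BACH families of basic leucine zipper transcription factors. All 7 were taken by symbol from a table of 20255 genes and were followed through 12 cell populations of a human pluripotent stem cell differentiation. RNA sequencing had been performed on H1, an established human embryonic stem cell line, during blood formation without added haematopoietic cytokines. The undifferentiated cells (1 sample, untreated) were followed by unsorted cells on days 0, 2 and 4, then by CD43+ and CD43- fractions on days 6, 9 and 12, and on day 16 by a CD43+/CD45+ and a CD43-CD45- fraction. Day 0 embryoid bodies were labelled as treated with BMP4 and hVEGF, and every later population with hVEGF alone. Each population except the undifferentiated one had 3 independent biological replicates, all from this single cell line. CD43 (leukosialin, encoded by SPN) marks the earliest blood cells in such cultures and CD45 (encoded by PTPRC) marks later blood cells.

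These factors bind DNA as pairs. NFE2 and NFE2L2, which is known as NRF2, are activators that pair with a small MAF protein such as MAFG or MAFK. The small MAF proteins lack a transactivation domain, whereas the large MAF proteins, of which MAF is a member, carry it and can act without a partner of another family. BACH1 and BACH2 compete for the same small MAF partners and mostly repress. NFE2 is best known from megakaryocytes and erythroid cells, NFE2L2 from the response to oxidative stress, BACH1 from repression of HMOX1 until haem is bound, BACH2 from lymphocytes and MAF from macrophages and T cells.

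On GRCh38 the genes lay at chr12:54292111-54301121 (NFE2, minus strand), chr2:177227595-177392697 (NFE2L2, minus strand), chr16:79585843-79600714 (MAF, minus strand), chr17:81918270-81927714 (MAFG, minus strand), chr7:1530714-1543043 (MAFK, plus strand), chr21:29194071-29630751 (BACH1, plus strand) and chr6:89926529-90296908 (BACH2, minus strand). The values are per whole gene, so exons, introns and isoforms cannot be told apart. Exons of MAFG overlapped those of SIRT7 on the same strand over 105 bases. Exons of MAFK overlapped TMEM184A on the opposite strand over 809 bases, those of NFE2L2 overlapped AGPS over 54 bases and those of BACH1 overlapped GRIK1 over 45 bases. Whether strand was used in counting is not given in the sources used here, so reads in these overlaps could have been counted for either gene.

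MAFG and MAFK are close relatives, and the stretch below is shown because short reads from it could belong to either. In the GENCODE 29 transcripts, with coding lengths of 486 bases for MAFG and 468 bases for MAFK, the longest identical run was 37 bases. It is printed in capitals within coding bases 81 to 140, 5′ to 3′.
MAFG: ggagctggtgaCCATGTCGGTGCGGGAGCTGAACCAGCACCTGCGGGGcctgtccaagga
MAFK: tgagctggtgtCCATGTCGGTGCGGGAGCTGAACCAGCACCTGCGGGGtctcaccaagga
The longest identical run was 17 bases between BACH1 and BACH2, 16 bases between MAF and MAFG, and 9 bases between NFE2 and NFE2L2. MAFG and MAFK nevertheless had different profiles over the 12 populations, described below.

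The promoters of BACH2 and MAF are shown because these were the members that were lower in CD43+ than in CD43- cells past 4-fold, BACH2 on each day and MAF on day 9. The windows are the 250 bases before the RefSeq start on GRCh38.p14, printed 5′ to 3′ on the minus strand. Capitals mark TGACGTCA, the palindromic cAMP response element, whose letters resemble those bound by MAF proteins.
BACH2, chr6:90296844-90297093: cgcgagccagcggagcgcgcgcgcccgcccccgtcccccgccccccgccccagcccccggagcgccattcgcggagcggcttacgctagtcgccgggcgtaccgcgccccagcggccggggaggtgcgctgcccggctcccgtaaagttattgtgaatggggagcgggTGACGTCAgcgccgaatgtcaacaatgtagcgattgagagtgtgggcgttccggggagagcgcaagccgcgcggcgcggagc
MAF, chr16:79600738-79600987: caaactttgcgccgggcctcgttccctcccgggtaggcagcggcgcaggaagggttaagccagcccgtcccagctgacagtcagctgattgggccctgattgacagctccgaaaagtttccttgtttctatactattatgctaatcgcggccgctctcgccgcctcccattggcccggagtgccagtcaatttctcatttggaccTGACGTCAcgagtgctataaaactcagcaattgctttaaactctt
The match began 82 bases before the start in BACH2 and 45 bases before it in MAF. TGACGTCA was held by 578 of 35116 RefSeq promoter windows of this length, or 1.65%, on either strand. Promoter windows were found for 5 of the 7 members (not for NFE2 and MAFK), and no other member held TGACGTCA. TGACTCA, the AP-1 element, was in 1 BACH1 window and in 4.2% of all windows. CACGTG was in the MAFG window (6.34% of all windows), and the GATA-type words AGATAA (9.17%) and TGATAA (6.66%) were in 1 BACH1 window. The antioxidant-type word TGACNNNGC (10.9% of all windows) was in no member's window. Both strands were searched for each word, the cores TGACGTCA and TGACTCA were added after the sequences had been read, and a match of letters is a description, not a binding site.

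The values analysed are GC-normalised tag counts deposited by the authors. Their unit is arbitrary, they carry no depth, and they are not divided by gene length, so levels are compared between populations for 1 gene and not between genes. In each of the 34 samples the same set of values was found after sorting (sum 17856940, median 197). The summed values thus did not differ between samples, and the true library sizes cannot be read from them. A gene was counted as passing at an adjusted p below 0.05 in limma's moderated test on log2(value + 1), and as called where it also differed by more than 4-fold. SPN was called higher in CD43+ cells on each day of sorting (log2 differences of 7.85, 8.63, 5.30 and 4.14), whereas PTPRC was listed at 0 to 8 in day 6 CD43+ cells and was called from day 9 on. Day 6 CD43+ cells also held collagen transcripts. The summed level of 10 mesenchymal markers was 59694 to 156322 there, against 202247 to 250050 in the CD43- cells. In the CD43+ cells this sum was held mainly by COL1A2, COL1A1 and COL3A1 (means 58647, 24889 and 11176). LUM, DCN and POSTN averaged 189, 16.7 and 60.7 there, against 24442, 2948 and 13783 in the CD43- cells. In bulk samples such as these, fewer cells of a type and less RNA per cell cannot be told apart.

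NFE2 and BACH2 separated CD43+ from CD43- cells in opposite directions on each of the 4 days of sorting, while the other 5 members differed less or changed direction. On day 6, 2 of the 7 members passed as higher in CD43+ cells, against 28.9% of all tested genes, 3 passed as lower, against 21.5%, and 2 were called, against 12.5%. On day 9, 2 were higher (38.5% of all genes), 3 lower (27.2%) and 3 called (21.5%). On day 12, 4 were higher (38.9%), 2 lower (29.1%) and 2 called (26.2%). On day 16, 3 were higher (37.3%), 1 lower (30.1%) and 2 called (25.8%). With 7 members these shares lie near those of all genes, and the members' median log2 difference of 0.02, 0.24, 0.35 and 0.36 lay beside medians of 0.14, 0.24, 0.22 and 0.14 over all genes. The values of CD43+ and CD43- samples did not overlap for 5, 6, 4 and 5 members on the successive days, against 56.8%, 70.9%, 61.6% and 73% of all genes.

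**Figure D1:**
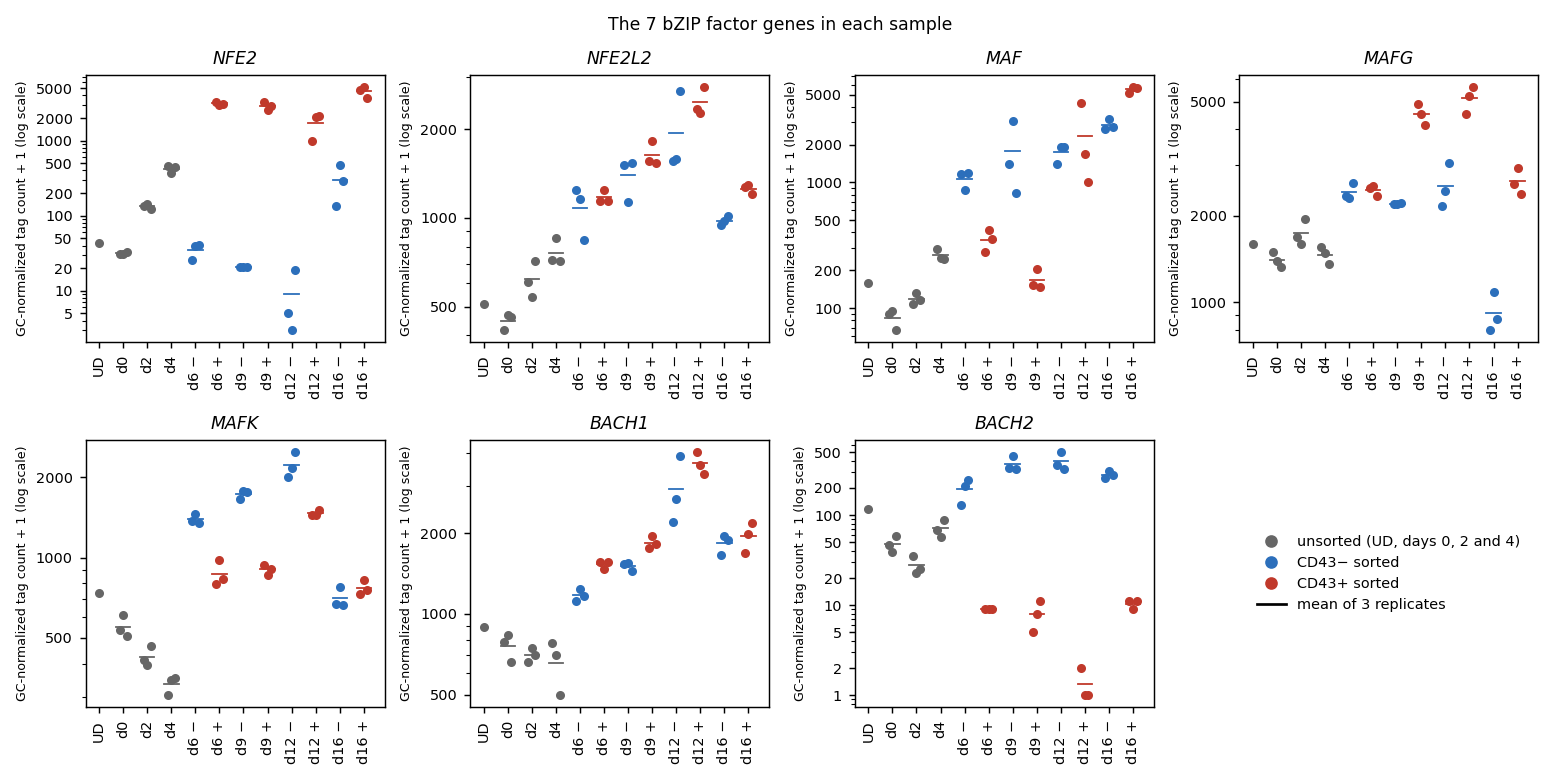
Normalised value of each of the 7 genes in every sample (vertical log axis, value + 1) by population (horizontal axis), with 1 point per replicate, CD43+ and CD43- fractions in different colours. NFE2 points of CD43+ samples lie between 974 and 5231 and those of CD43- samples between 2 and 469, whereas BACH2 points of CD43+ samples lie at 10 or below.

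NFE2, the large subunit of the factor that drives platelet release and binds globin control regions, rose before CD43+ cells were sorted. Its values were 42 in undifferentiated cells, 30, 30 and 32 on day 0, 135, 141 and 122 on day 2, and 458, 374 and 440 on day 4. The rise was 2.08 ± 0.42 (SE) on the log2 scale from day 0 to day 2 (adjusted p = 0.000304) and 1.67 ± 0.42 from day 2 to day 4 (adjusted p = 0.00258), and no samples of adjacent days overlapped. On day 6 the values were 3268, 3002 and 3123 in CD43+ cells and 25, 38 and 40 in CD43- cells. Compared with day 4, the CD43+ fraction was higher by 2.89 ± 0.42 (adjusted p = 2.43e-06), and in the CD43- fraction NFE2 fell by 3.61 ± 0.42 (adjusted p = 1.6e-07). All day 4 samples lay between the sorted fractions of day 6.

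NFE2 remained high in CD43+ cells, at 3268, 2556 and 2900 on day 9, 974, 2074 and 2135 on day 12 and 4693, 5231 and 3668 on day 16. In CD43- cells its values were 20, 20 and 20 on day 9 and 4, 2 and 18 on day 12, then 134, 469 and 292 on day 16. Every CD43+ sample was above every CD43- sample on all 4 days. The log2 difference was 6.50 on day 6 (adjusted p = 2e-12), 7.11 on day 9 (adjusted p = 7.96e-14), 7.95 on day 12 (adjusted p = 3.94e-15) and 4.08 on day 16 (adjusted p = 2.48e-09), each with an SE of 0.42. Leaving out any single sample gave 7.38 to 8.72 on day 12 and 3.59 to 4.49 on day 16.

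The CD43 difference of NFE2 was smaller on day 16 than on day 12 by a log2 difference of -3.87 ± 0.60 (adjusted p = 6.65e-05). Day 16 cells were sorted on CD43 and CD45, day 12 cells on CD43 alone. For every gene, time and sort therefore cannot be told apart between days 12 and 16. NFE2 rose in both fractions between these days, and by more in CD43- cells, by 5.33 ± 0.42 (adjusted p = 2.09e-10). In CD43+ cells it rose by 1.46 ± 0.42 (adjusted p = 0.00664), and by 1.09 (adjusted p = 0.0575) without day 12 CD43+ replicate 1, which had the lowest NFE2 value of its population. Markers of blood cells moved with NFE2 in the CD43- fraction. Of 15 megakaryocyte and platelet genes, 14 passed as higher on day 16 than on day 12 and none was at 0 in all day 16 samples, with a summed level of 5706, 17802 and 9304 on day 16 against 321, 615 and 1737 on day 12. The order of these sums was that of the NFE2 values on day 16 but not on day 12 (NFE2 at 4, 2 and 18). In the same comparison 14 of 22 globin, haem and erythroid genes, 7 of 8 neutrophil markers and 5 of 7 mast cell and eosinophil markers passed as higher, while 7 of 16 macrophage genes were lower and 3 higher. Over all genes 45.6% passed in this comparison, in either direction. The part of these blood cells in the NFE2 result was not tested.

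**Figure D2:**
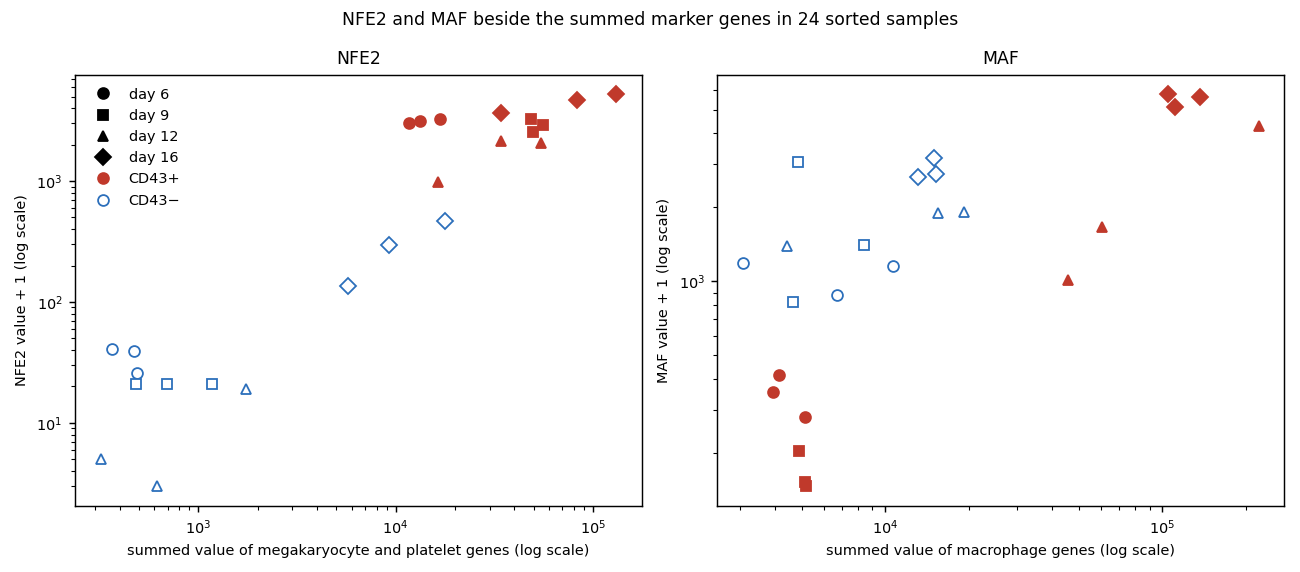
NFE2 value + 1 against the summed value of 15 megakaryocyte and platelet genes (left) and MAF value + 1 against the summed value of 16 macrophage genes (right) in the 24 sorted samples, both axes logarithmic, 1 point per sample, shapes for the day, red filled for CD43+ and blue open for CD43-. The day 16 CD43- samples lie at sums of 5706 to 17802 with NFE2 at 134 to 469, and the 3 day 12 CD43+ samples spread from 45824 to 222417 in macrophage sum and from 1008 to 4286 in MAF. In day 9 CD43- samples the macrophage sum was held mainly by STAB1, SEPP1 and MRC1.

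TUBB1, the tubulin of the platelet marginal band, and TBXAS1, thromboxane synthase, are textbook targets of NFE2, and both were called higher in CD43+ cells on all 4 days. In CD43+ cells TUBB1 averaged 203 ± 62.2 (SD, n = 3), 2925 ± 830, 1105 ± 721 and 5193 ± 2944 on the successive days. Its log2 differences from CD43- cells were 4.79, 8.11, 7.01 and 3.14, and those of TBXAS1 were 2.68, 3.57, 5.47 and 4.09. Of the 15 megakaryocyte and platelet genes, 12 passed as higher and 1 as lower on day 6 and 15 of 15 passed as higher on days 9, 12 and 16. Their median log2 differences were 4.06, 7.34, 6.47 and 3.06. Over all genes 28.9%, 38.5%, 38.9% and 37.3% passed as higher on days 6, 9, 12 and 16. LY6G6F, a surface protein of the megakaryocyte lineage, was listed at 0 in all CD43- samples of days 6 and 9 and at 215 to 278 and 709 to 845 in the CD43+ samples. PF4, platelet factor 4, led on day 12 (8.38) and CLEC1B, a platelet receptor for podoplanin, on day 16 (4.21). The 22 globin, haem and erythroid genes all passed as higher on days 6 and 9 (medians 6.57 and 8.26), led by embryonic HBE1 on day 6 (11.47, with all CD43+ samples at the ceiling of 90700). On day 12, 19 were higher (median 4.65), and on day 16, 14 were higher and 1 lower (median 1.71). Between days 9 and 12 all 22 fell in CD43+ cells, whereas NFE2 changed by -0.83 ± 0.42 (adjusted p = 0.0959).

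NFE2L2 (NRF2), whose protein is held low by KEAP1 until oxidants release it, was mainly related to time and much less to CD43. It was at 508 in undifferentiated cells, 416, 466 and 460 on day 0, 606, 537 and 714 on day 2 and 718, 852 and 716 on day 4. In CD43+ cells it stood at 1138, 1248 and 1144 on day 6, 1554, 1828 and 1536 on day 9, 2346, 2272 and 2788 on day 12 and 1272, 1293 and 1206 on day 16. The CD43- values were 1244, 1156 and 844 on day 6, 1516, 1130 and 1540 on day 9, 1554, 1588 and 2688 on day 12 and 943, 972 and 1018 on day 16. Its lowest and highest population means, on day 0 and in day 12 CD43+ cells, differed 5.52-fold. The fractions overlapped on days 6, 9 and 12 and not on day 16.

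The CD43 difference of NFE2L2 was 0.14 on day 6 (adjusted p = 0.501), 0.24 on day 9 (adjusted p = 0.196), 0.39 on day 12 (adjusted p = 0.0379) and 0.36 on day 16 (adjusted p = 0.0522), each with an SE of 0.16. The interval for day 6 ran from -0.20 to 0.48. The day 12 difference did not pass in 3 of 6 fits that left out a sample (without CD43- replicate 1 or 2 or CD43+ replicate 3; 0.25 to 0.65 over all 6). In CD43+ cells NFE2L2 rose by 0.47 between days 6 and 9 (adjusted p = 0.0282) and by 0.59 between days 9 and 12 (adjusted p = 0.00332), then fell by 0.97 by day 16 (adjusted p = 3.39e-05). In CD43- cells it fell by 0.94 from day 12 to day 16 (adjusted p = 4.07e-05).

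MAF, a large MAF factor known from macrophages, went from low to high in CD43+ cells between days 9 and 12. It was at 158 in undifferentiated cells, 88, 94 and 66 on day 0, 107, 132 and 114 on day 2 and 294, 249 and 245 on day 4. The CD43+ values were 280, 416 and 355 on day 6, 151, 204 and 146 on day 9, 4286, 1670 and 1008 on day 12 and 5126, 5779 and 5635 on day 16. CD43- cells had 1156, 876 and 1182 on day 6, 1402, 3060 and 824 on day 9, 1393, 1904 and 1922 on day 12 and 2648, 3186 and 2744 on day 16. CD43+ samples were all below CD43- samples on days 6 and 9, overlapped with them on day 12, and were all above them on day 16.

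The log2 CD43 difference of MAF was -1.62 ± 0.36 on day 6 (adjusted p = 0.000445), -3.20 ± 0.36 on day 9 (adjusted p = 1.27e-08), 0.17 ± 0.36 on day 12 (adjusted p = 0.692) and 0.95 ± 0.36 on day 16 (adjusted p = 0.0204). The day 16 difference was 0.90 without CD43- replicate 1 (adjusted p = 0.0557) and 0.91 without CD43+ replicate 2 (adjusted p = 0.0508). Between day 9 and day 12 the difference itself moved by 3.37 ± 0.50 (adjusted p = 1.28e-05). The move lay in the CD43+ cells, where MAF rose by 3.54 ± 0.36 (adjusted p = 4.56e-09), against 0.18 ± 0.36 in CD43- cells (adjusted p = 0.734). On day 12 the CD43 difference was -0.41 (adjusted p = 0.261) without CD43+ replicate 1, the sample with the highest MAF value of its population.

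Macrophage genes rose with MAF in CD43+ cells between days 9 and 12, whereas between days 6 and 9 several of them rose while MAF fell. From day 6 to day 9, when MAF fell in CD43+ cells, 7 of 16 macrophage genes passed as higher there and 1 as lower. Over all genes 29.8% passed in that step, in either direction. CSF1R, the receptor for macrophage colony-stimulating factor, went from 416 ± 213 to 2591 ± 243 (SD, n = 3) in that step. On day 9, with MAF lower in CD43+ than in CD43- cells, 8 of the 16 were higher, among them F13A1, the A chain of coagulation factor XIII (7.10), and CSF1R (6.47), and 3 were lower. All 16 macrophage genes of the table passed as higher in CD43+ cells on day 12 than on day 9, with a median log2 change of 5.31 against -0.15 over all genes, and none was at 0 throughout day 12. The summed level was 222417, 60383 and 45824 in replicates 1, 2 and 3 on day 12, the same order as that of MAF. On day 9 it was 5139, 4878 and 5182, the reverse of the order of MAF (151, 204 and 146). In CD43- cells 11 of the 16 rose between these days and none fell, against 36.7% of all genes passing in either direction. MAF did not pass there. The sums there were 8375, 4861 and 4659 on day 9 and 4431, 15575 and 19231 on day 12, in the order of MAF on day 12 only. In day 9 CD43- cells STAB1, SEPP1 and MRC1 averaged 3199, 1248 and 1190, CSF1R averaged 28.7, and 5 genes, among them C1QA, were at 0 throughout. The sum is thus not a measure of macrophages alone in CD43- cells. Against CD43- cells, 14 of the 16 were higher on day 12, among them F13A1 (5.09) and the scavenger receptor MARCO, which was listed at 0 in all CD43- samples and at 65 to 148 in CD43+ samples. On day 16 also 14 were higher, led by the haemoglobin receptor CD163 (9.65) and the complement genes C1QA (9.35), C1QB (8.86) and C1QC (8.36). The share of macrophages in the MAF values was not tested.

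MAFG, a small MAF partner of all NFE2 and BACH proteins, gained a CD43 difference after day 6. It stood at 1592 in undifferentiated cells, between 1320 and 1498 on day 0, between 1592 and 1948 on day 2 and between 1356 and 1550 on day 4. On day 6 it was at 2496, 2530 and 2346 in CD43+ cells and 2346, 2310 and 2596 in CD43- cells, and the groups overlapped (difference 0.02, interval -0.22 to 0.27, adjusted p = 0.886). On day 9 the CD43+ values were 4894, 4539 and 4148 against 2192, 2200 and 2216, on day 12 they were 4539, 5245 and 5632 against 2155, 2438 and 3045, and on day 16 they were 2584, 2931 and 2384 against 799, 1084 and 874. From day 9 on every CD43+ sample lay above every CD43- sample, by 1.04 ± 0.12 (adjusted p = 1.96e-08), 1.02 ± 0.12 (adjusted p = 1.81e-08) and 1.52 ± 0.12 (adjusted p = 9.7e-12). The difference was larger on day 9 than on day 6 by 1.01 ± 0.17 (adjusted p = 9.46e-05). Between days 12 and 16 MAFG fell by 0.96 in CD43+ cells (adjusted p = 3.67e-07) and by 1.47 in CD43- cells (adjusted p = 2.96e-10).

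MAFK, the other small MAF member, had the opposite sign. It was at 734 in undifferentiated cells and then fell from 533, 610 and 506 on day 0 to 304, 348 and 354 on day 4, passing at both steps (-0.37, adjusted p = 0.00367, and -0.34, adjusted p = 0.00781). The second step was -0.27 without day 2 replicate 3 (adjusted p = 0.058) or without day 4 replicate 1 (adjusted p = 0.0599). The CD43+ values were 798, 981 and 832 on day 6, 938, 860 and 906 on day 9, 1448, 1438 and 1511 on day 12 and 730, 824 and 758 on day 16. CD43- cells had 1372, 1456 and 1351 on day 6, 1658, 1780 and 1756 on day 9, 2000, 2172 and 2484 on day 12 and 670, 778 and 663 on day 16. All CD43- samples were above all CD43+ samples on days 6, 9 and 12, and the groups overlapped on day 16. The log2 difference of MAFK was -0.68 ± 0.10 (adjusted p = 1.9e-06), -0.94 ± 0.10 (adjusted p = 3.87e-09), -0.59 ± 0.10 (adjusted p = 6.2e-06) and then 0.13 ± 0.10 (adjusted p = 0.234). On days 9 and 12 MAFK was thus higher in CD43- cells and MAFG higher in CD43+ cells. The loss on day 16 was tested as the change of the difference, 0.73 ± 0.14 (adjusted p = 0.000669), with a fall of 1.65 in CD43- cells (adjusted p = 7.99e-13) and of 0.93 in CD43+ cells (adjusted p = 3.43e-08).

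**Figure D3:**
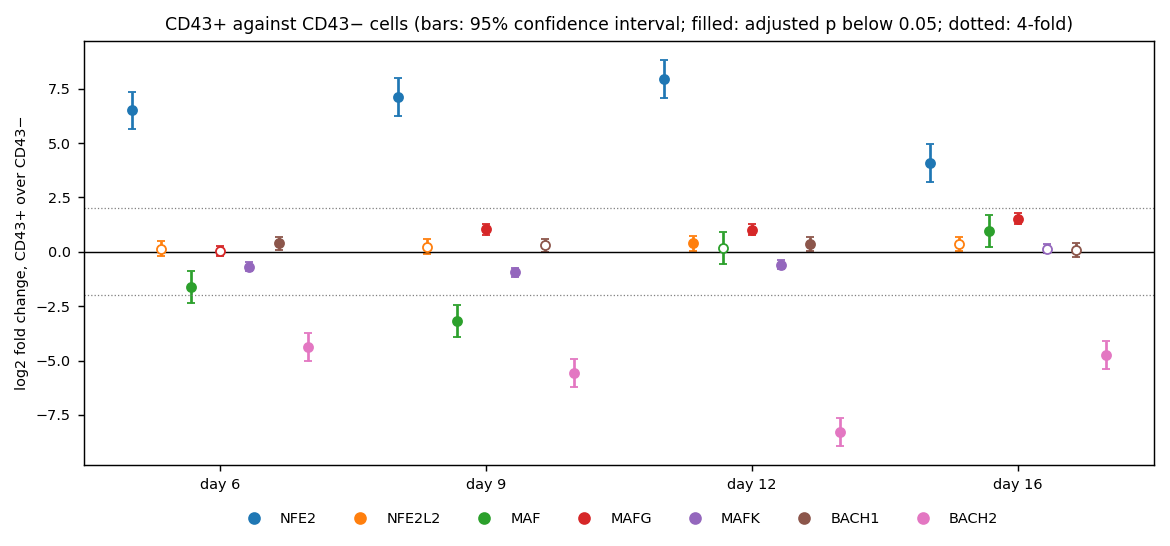
Log2 difference between CD43+ and CD43- cells (vertical axis, bars 95% intervals from limma, filled points past the adjusted p threshold, dotted lines at 4-fold) for the 7 genes, in different colours, by day of sorting (horizontal axis). NFE2 lies between 4.08 and 7.95 and BACH2 between -8.27 and -4.39 on all days, and MAF goes from -3.20 on day 9 to 0.95 on day 16.

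BACH1, the haem-binding repressor of HMOX1, was again related more to time than to CD43. It was at 890 in undifferentiated cells, 786, 834 and 661 on day 0, 660, 744 and 704 on day 2 and 776, 700 and 496 on day 4. The CD43+ values were 1566, 1469 and 1558 on day 6, 1762, 1963 and 1821 on day 9, 4030, 3605 and 3343 on day 12 and 1696, 1991 and 2192 on day 16. CD43- cells had 1114, 1241 and 1167 on day 6, 1536, 1554 and 1448 on day 9, 2215, 2700 and 3890 on day 12 and 1658, 1963 and 1888 on day 16. CD43+ samples were above CD43- samples on days 6 and 9 and overlapped with them on days 12 and 16. The difference was 0.38 on day 6 (adjusted p = 0.0371), 0.29 on day 9 (adjusted p = 0.0968), 0.35 on day 12 (adjusted p = 0.0413) and 0.09 on day 16 (adjusted p = 0.619), with an SE of 0.15. With the replicate number as a block within each day, which pairs the samples on day 6, the adjusted p was 0.0566 on day 6. The day 6 difference did not pass in 5 of 6 fits that left out a sample (adjusted p of 0.0463 to 0.103) and the day 12 difference not in 4 of 6 (0.17 to 0.58, lowest without CD43- replicate 1).

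Over time BACH1 rose by 1.24 ± 0.15 from day 4 to day 6 CD43+ cells (adjusted p = 1.57e-07) and by 0.86 ± 0.15 to day 6 CD43- cells (adjusted p = 5.13e-05). Between days 9 and 12 it rose by 0.98 in CD43+ cells (adjusted p = 4.43e-06) and by 0.92 in CD43- cells (adjusted p = 4.07e-05). By day 16 it fell by 0.90 in CD43+ cells (adjusted p = 3.16e-05) and by 0.64 in CD43- cells (adjusted p = 0.00122). The population means of BACH1 and NFE2L2 had a Pearson correlation of 0.903 over the 12 populations on the log2 scale, a description over populations from shared cultures. Both were highest in day 12 CD43+ cells.

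BACH2, a repressor best known for its part in B and T cells, was low in CD43+ cells from the first sort on. It was at 115 in undifferentiated cells, 46, 38 and 57 on day 0, 34, 22 and 24 on day 2 and 68, 56 and 86 on day 4. On day 6 it was at 8, 8 and 8 in CD43+ cells and 129, 208 and 246 in CD43- cells, with all day 4 samples in between. Relative to day 4 it fell by 2.96 ± 0.31 in the CD43+ fraction (adjusted p = 1.59e-08) and rose by 1.43 ± 0.31 in the CD43- fraction (adjusted p = 0.000576). In CD43+ cells it then stood at 4, 7 and 10 on day 9, 1, 0 and 0 on day 12 and 10, 8 and 10 on day 16. The CD43- values were 330, 455 and 324 on day 9, 359, 500 and 326 on day 12 and 258, 304 and 274 on day 16.

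Every CD43- sample of BACH2 was at least 129 and every CD43+ sample at most 10. The log2 difference was -4.39 on day 6 (adjusted p = 1.37e-11), -5.59 on day 9 (adjusted p = 2.96e-14), -8.27 on day 12 (adjusted p = 5.62e-18) and -4.76 on day 16 (adjusted p = 3.94e-13), each with an SE of 0.31. Because the CD43+ values are near 0, these sizes rest on the pseudocount, and with a pseudocount of 10 they were -3.46, -4.48, -5.27 and -3.90, all still called. The fall from day 9 to day 12 in CD43+ cells (-2.59, adjusted p = 1.07e-07) and the rise to day 16 (3.03, adjusted p = 2.57e-08) moved between values of 10 or less and were not called with a pseudocount of 10. The population means of BACH2 had a correlation of -0.811 with those of NFE2 and -0.647 with those of MAFG over the 12 populations.

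Of the 11 lymphoid regulators and markers, day 6 CD43+ cells had 4 that passed as higher and 4 as lower. There were 7 higher and 1 lower on day 9, and 7 higher and none lower on days 12 and 16. Over all genes 28.9%, 38.5%, 38.9% and 37.3% passed as higher and 21.5%, 27.2%, 29.1% and 30.1% as lower. BCL6, a transcriptional repressor active in germinal centre B cells, was lower in CD43+ cells on days 6 and 9 (-2.37 and -2.72), as BACH2 was. BCL6 differed by 0.25 on day 12 (adjusted p = 0.393) and was higher on day 16 (1.36, adjusted p = 3.11e-05). CD7 led on day 6 in the other direction (5.07). IRF4, a factor of plasma cell formation, was lower on day 6 (-1.97, adjusted p = 0.0025) and higher on days 9, 12 and 16 (3.88, 4.70 and 1.32). PRDM1, which represses B cell genes in plasma cells and is itself a known BACH2 target, was lower on day 6 (-1.25, adjusted p = 0.0144), differed by 0.65 on day 9 (adjusted p = 0.174) and was higher on days 12 and 16 (2.47 and 3.38). BACH2 was lower on all 4 days.

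Mesenchymal markers were lower in CD43+ cells for 8 of 10 genes on day 6 and for all 10 on days 9, 12 and 16. Over all genes 21.5%, 27.2%, 29.1% and 30.1% passed as lower on these days. On day 6, COL1A1 (-0.36, adjusted p = 0.413) and COL1A2 (0.18, adjusted p = 0.645) did not pass. These genes held most of the summed level in CD43+ cells, which was 59694 to 156322. LUM, DCN and POSTN differed by -7.02, -7.27 and -7.73 on that day. The sum on day 9 was 247248 to 301306 in CD43- cells and 4382 to 22264 in CD43+ cells. The 8 endothelial markers were lower in CD43+ cells for 5, 6, 7 and 8 genes on the successive days, and the part of mesenchymal or endothelial cells in the BACH2 values was not tested.

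The order of levels differed between the members. NFE2 was highest in day 16 CD43+ cells (4531 ± 794, SD, n = 3), followed by the CD43+ cells of day 6 and day 9, which overlapped with each other, and of day 12. BACH2 was highest in the CD43- cells of day 12 and day 9, which overlapped, and the 4 CD43+ populations held the lowest places. MAF was highest in day 16 CD43+ cells (5513 ± 343), apart from the next population, and lowest on day 0. MAFG was highest in the CD43+ cells of day 12 and day 9, which overlapped, and lowest in day 16 CD43- cells. MAFK was highest in day 12 CD43- cells, apart from day 9 CD43- cells, and lowest on day 4, and its levels from day 9 CD43+ cells down to day 16 CD43- cells each overlapped with the next. BACH1 was highest in the CD43+ and CD43- cells of day 12, which overlapped, and lowest on day 4, which overlapped with day 2. Neighbours in the order of NFE2L2 overlapped down to the CD43- cells of day 6 and day 16, and the unsorted populations held the lowest places.

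The genes most like each member were taken by Pearson correlation of the population means over 12 populations. For NFE2 these were HDC (0.979), ARV1 (0.962) and C5orf63 (0.955), and HDC encodes the histidine decarboxylase of mast cells and basophils. For MAF they were NLRP1 (0.993), SLC7A7 (0.98) and CPM (0.978). For BACH2 they were NUMBL (0.976), CACNA1C (0.974), a calcium channel, and PTN (0.97), a heparin-binding growth factor. MAFK was followed most closely by MAFF (0.975), another small MAF gene, then by FLJ22447 (0.951) and FEM1C (0.928). MAFG was followed by SPDYE6 (0.95), MAK (0.949) and PBLD (0.944), NFE2L2 by AAED1 (0.977), ELMSAN1 (0.976) and RGCC (0.973), and BACH1 by C1RL-AS1 (0.961), MDM4 (0.957) and RGCC (0.954).

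Further relatives outside the 7 members were read from the same table. NFE2L1, a membrane-bound relative of NFE2L2, was lower in CD43+ cells on all 4 days (-0.41, -0.46, -0.79 and -1.23). NFE2L3 fell from 4311 ± 171 on day 0 to 907 ± 118 on day 2 and passed as lower in CD43+ cells on days 12 and 16 (-0.62 and -0.67). Like MAFK, MAFF was lower in CD43+ cells on days 6, 9 and 12 (-1.80, -1.54 and -1.71). On day 16, when MAFK did not pass, MAFF was higher in CD43+ cells (1.31). The CD43- means of MAFF were 6033 ± 1629 on day 12 and 322 ± 11.9 on day 16. MAFA and NRL had means of at most 121 and 92 in every population, and MAFA was lower in CD43+ cells on day 9 (-1.65, adjusted p = 0.0284), when NRL was higher (1.55). Both were called higher on day 12 (2.60 and 2.47), from CD43- means of 2 and 3.67 to CD43+ means of 19 and 20, so that these sizes rest on the pseudocount, and both passed as higher on day 16 (1.66 and 1.09).

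**Figure D4:**
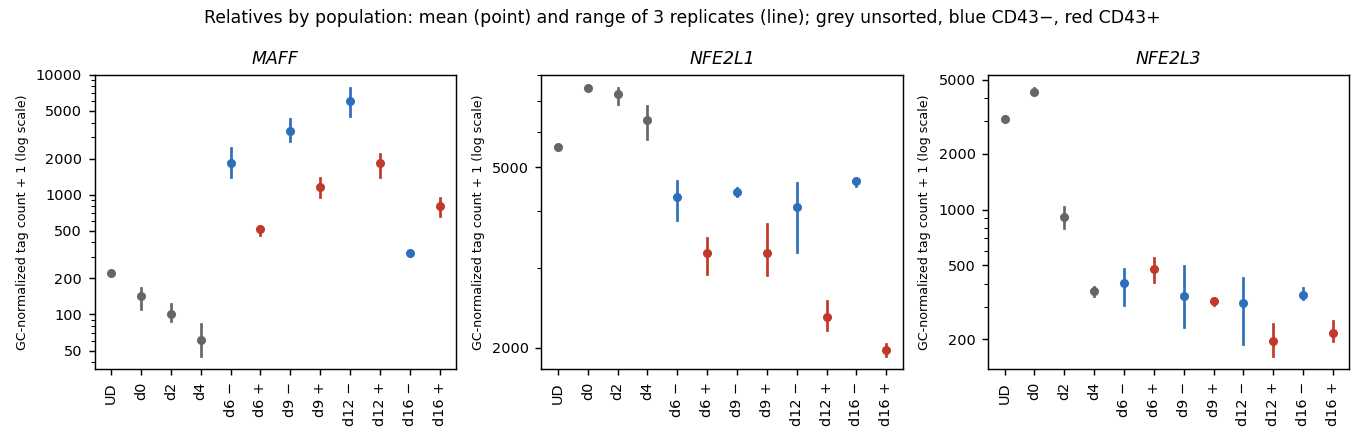
Mean normalised value + 1 (points, vertical log axis, lines for the range of the 3 replicates) of MAFF, NFE2L1 and NFE2L3 by population (horizontal axis), with unsorted cells in grey, CD43- cells in blue and CD43+ cells in red. MAFF goes from 6033 on day 12 to 322 on day 16 in CD43- cells, and NFE2L3 from 4311 on day 0 to 907 on day 2.

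The proteins that set the stability of NFE2L2 and BACH1 were measured at the RNA level only. Of 7 such genes, 3, 4, 4 and 3 passed as higher in CD43+ cells on the successive days and 0, 2, 2 and 1 as lower. Over all genes 28.9%, 38.5%, 38.9% and 37.3% passed as higher and 21.5%, 27.2%, 29.1% and 30.1% as lower. With 7 genes the counts cannot be set apart from these shares. KEAP1, the adaptor that marks the NFE2L2 protein for destruction, was higher in CD43+ cells by 0.98, 1.13, 0.58 and 0.30 (adjusted p between 2.86e-08 on day 9 and 0.0429 on day 16). Its means were 2379 ± 174 and 1211 ± 109 in CD43+ and CD43- cells of day 6, and 2654 ± 156 and 1223 ± 167 on day 9. FBXO22, part of the ligase that removes BACH1, was higher on days 6, 9 and 12 (0.40, 0.56 and 0.39), and BTRC, part of another ligase for NFE2L2, was lower on days 9, 12 and 16 (-0.84, -1.01 and -0.61). No gene of this list was called at 4-fold on any of the 4 days.

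Antioxidant response genes, the classical targets of NFE2L2 and BACH1, were mostly higher in CD43+ cells. Of 22 genes, 13, 14, 16 and 16 passed as higher on days 6, 9, 12 and 16 and 2, 2, 3 and 2 as lower. Over all genes 28.9%, 38.5%, 38.9% and 37.3% passed as higher and 21.5%, 27.2%, 29.1% and 30.1% as lower. The median log2 differences were 0.51, 0.73, 1.25 and 1.01 against 0.14, 0.24, 0.22 and 0.14 over all genes. HMOX1, haem oxygenase and the best known target of BACH1, was higher by 1.25 on day 6 (adjusted p = 0.00113), 1.83 on day 12 (adjusted p = 5.82e-06) and 3.09 on day 16 (adjusted p = 8.24e-10), and its difference on day 9 was 0.14 (adjusted p = 0.707). Its means in CD43+ cells were 2905 ± 596, 629 ± 123, 3827 ± 452 and 3951 ± 227 on the successive days. NQO1, a quinone reductase regarded as a standard readout of NFE2L2, was lower on all 4 days (-1.28, -1.56, -0.82 and -2.10), with means of 80 ± 18.2 and 341 ± 38.3 in CD43+ and CD43- cells of day 16. HMOX1 and NQO1 thus differed in sign on days 6, 12 and 16.

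**Figure D5:**
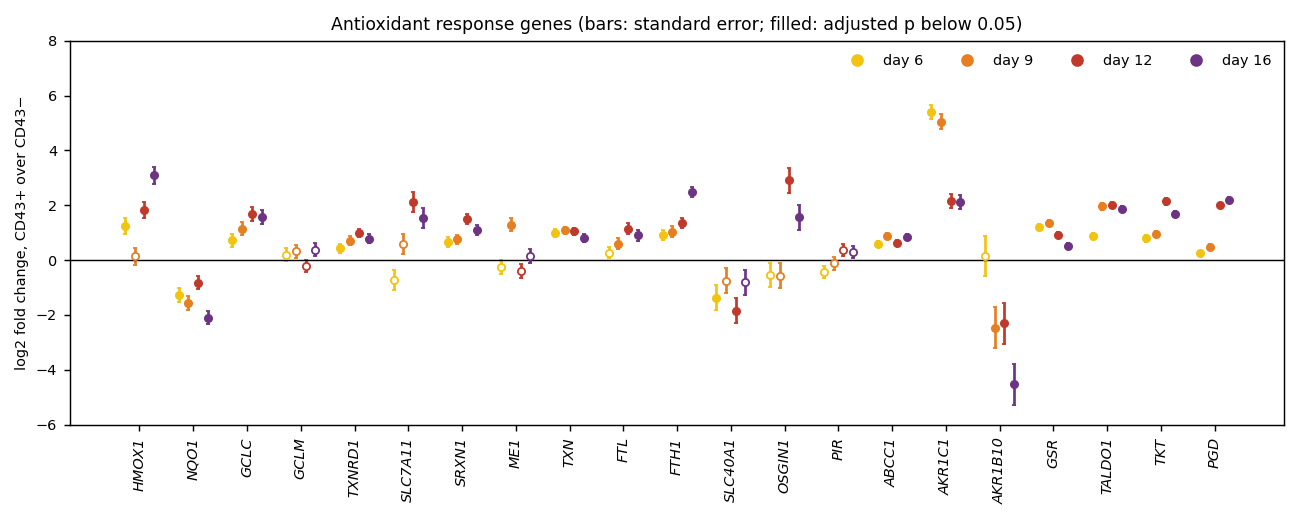
Log2 difference between CD43+ and CD43- cells (vertical axis, bars 1 SE from limma, filled points past the adjusted p threshold) of antioxidant response genes (horizontal axis), with a colour per day of sorting. HMOX1 reaches 3.09 on day 16 and NQO1 lies at -2.10 on that day.

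AKR1C1, an aldo-keto reductase, had the largest difference of the list on days 6 and 9 (5.41 and 5.05), with a CD43+ mean of 1437 ± 89.1 on day 6 that was 90.3 ± 26 on day 12. AKR1B10 passed as lower on days 9, 12 and 16, was listed at 0 in all CD43+ samples of days 9 and 16, and had means of at most 63.7 in every population. On day 12 OSGIN1 (2.91) was among the genes called higher, and on day 16 HMOX1 and the ferritin heavy chain FTH1 (2.48) were. FTH1 was at 76487 ± 24618 in day 16 CD43+ cells and 13169 ± 273 in CD43- cells, and its highest value there, 90700, was the highest that any gene took in any sample. Globin and macrophage genes also differed between the fractions, with a globin, haem and erythroid sum in CD43+ cells of 213498 to 368476 on day 9 and 15695 to 34055 on day 12. The part of these cell types in the antioxidant gene values was not tested.

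Steps between the unsorted and the first sorted populations changed most members. From day 0 to day 2, 5 of 7 passed (36.4% of all genes) and 1, NFE2, was called (7.88%). From day 2 to day 4, 4 passed (36.1%) and none was called (9.5%). From day 4 to day 6 CD43+ cells 6 passed (51.9%), with NFE2 called higher and BACH2 called lower (14.5%), and to day 6 CD43- cells 7 passed (45%), with MAF and MAFK called higher and NFE2 called lower (7.71%). Both fractions of day 6 were each compared with the same day 4 samples. MAFK rose by 1.37 to CD43+ and by 2.05 to CD43- cells, and MAFG by 0.75 and 0.72. MAF rose by 2.02 to CD43- cells (adjusted p = 5.02e-05), and to CD43+ cells its change was 0.40 (adjusted p = 0.36).

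Within the CD43+ fraction 3 members passed from day 6 to day 9 (29.8% of all genes) and none was called (7.53%). From day 9 to day 12, 5 passed (56.3%) and MAF and BACH2 were called (15%). From day 12 to day 16 all 7 passed (42.4%), NFE2, MAF and BACH2 upward and NFE2L2, MAFG, MAFK and BACH1 downward, and BACH2 alone was called (9.05%). Within the CD43- fraction none passed in limma from day 6 to day 9 (4 had an unadjusted p below 0.05), where 6.65% of all genes passed and 1.75% were called. From day 9 to day 12, 4 passed (36.7%) and none was called (7.33%), and from day 12 to day 16, 5 passed (45.6%), with NFE2 called (10.4%). NFE2L2, MAFG, MAFK and BACH1 fell between days 12 and 16 in both fractions, by -0.97, -0.96, -0.93 and -0.90 in CD43+ cells and by -0.94, -1.47, -1.65 and -0.64 in CD43- cells. The sort also changed between these days, from CD43 alone to CD43 with CD45.

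The test of the CD43 difference between days gave 2 members passing for the step from day 6 to day 9 (18.2% of all genes), 2 for the next step (27.4%) and 4 for the last, between days 12 and 16 (17%). None, 2 and 2 of these were called, against 7.39%, 9% and 5.03% of all genes. NFE2 did not pass between days 6 and 9 (0.61, interval -0.61 to 1.83) nor between days 9 and 12 (0.84, interval -0.38 to 2.07), and NFE2L2 and BACH1 passed at no step.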

How the data were processed

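RNA of 34 samples had been sequenced, and the authors deposited GC-normalised tag counts per gene. According to the study's methods, reads were aligned with Bowtie2, quantified with RSEM on an Ensembl index and normalised with EDASeq under its full setting. The submitters' processing notes also list STAR 2.7, bcl2fastq and the genome build hg38. The deposited values are whole numbers of a normalised score, not raw counts, so no count model was used. The depth per sample is unknown, and the number of replicates limits the precision. Strand use in counting and the division of samples among sequencing providers are not given in the sources used here.

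A pseudocount of 1 was added, and log2 scores were fitted by limma (version 3.58.1, R version 4.3.3), with a mean-variance trend in the empirical Bayes step, over the 33 replicated samples, with 22 residual degrees of freedom and no replicate block. Testing was restricted to the 19788 genes that reached 10 in 3 or more samples (467 did not, and all 7 members did), and p-values of the 2-sided moderated test were adjusted by Benjamini-Hochberg over all of them in each of 17 comparisons. A comparison was called at an adjusted p below 0.05 and a fold change above 4. Fold changes are on the log2(value + 1) scale, which understates those of low genes. The step was tested on simulated data, and tables and figures were made with Python 3.11.15, pandas 2.3.3, numpy 2.4.6 and matplotlib 3.10.9. Promoter windows were taken from RefSeq (GRCh38.p14) and coding stretches from GENCODE 29 transcripts. The members, marker lists and tests were chosen with earlier results of these data known. Named genes are the members, their relatives, KEAP1, HMOX1, NQO1, TUBB1, TBXAS1, SPN, PTPRC and, from each list described, up to 4 passing genes with the largest change, plus the 3 genes most correlated with each member. Some genes that this rule names are not reported here. Alternatives were other pseudocounts, filters, scalings, variance models and thresholds, a replicate block, a fit of only the populations compared, and leaving out each replicate.

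Replicate numbers were shared between fractions. After subtraction of each population's mean, CD43+ samples correlated with the CD43- samples of the same number by 0.198, 0.109 and 0.199 on day 6, and on the other days at least 1 pair was below 0.1 (lowest -0.0152), so the numbers were taken to pair samples on day 6 only.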

Additional observations from a re-analysis of the deposited data

Results flagged for a closer look

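The CD43 difference of 5 members, NFE2, MAF, MAFG, MAFK and BACH2, changed between successive days of sorting by a test of the change itself (limma interaction term, adjusted over all tested genes), which singled out 8 results. Between days 6 and 9 the difference of MAF moved by -1.58 (adjusted p = 0.0277) and that of MAFG by 1.01 (adjusted p = 9.46e-05). Without a single sample the MAF value ran from -2.03 to -1.08, lowest in size without day 9 CD43- replicate 2 (adjusted p = 0.109), and it did not pass in 6 of 12 such fits.

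Between days 9 and 12 the difference of MAF moved by 3.37 (adjusted p = 1.28e-05) and that of BACH2 by -2.68 (adjusted p = 4.97e-05). The BACH2 value rests on CD43+ levels of 10 or less and was -0.79 (adjusted p = 0.0544) with a pseudocount of 10. Between days 12 and 16 the difference of BACH2 moved back by 3.51 (adjusted p = 5.41e-06), again between such levels, and that of NFE2 moved by -3.87 (adjusted p = 6.65e-05). In the same step the difference of MAFK moved by 0.73 (adjusted p = 0.000669) and that of MAFG by 0.50 (adjusted p = 0.0379). The sort changed in this step from CD43 alone to CD43 with CD45, which cannot be told apart from time. The MAFG value ran from 0.37 to 0.63 when a single sample was left out and did not pass in 7 of 12 such fits. Single samples were not tested for standing apart, since each group held 3.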

How the results depend on the processing

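Over 119 results, 1077 of 1120 values under settings other than leaving out a sample kept their direction and their side of the threshold, 22 no longer passed, 17 newly passed and 4 reversed. When single samples were left out, 759 of 840 values did so, 55 no longer passed, 6 newly passed and 20 reversed. All 64 values of NFE2 and all 64 of BACH2 for CD43+ against CD43- cells kept their call. Quantile scaling, among the alternatives, could not move any value, because the sorted values were already the same in all samples. Values kept under that setting therefore say nothing about stability.

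No reversed value passed the test. Under median-of-ratios scaling, which moved the median over all genes by -0.21 on day 9 and -0.14 on day 6, the day 6 difference was -0.0267 for NFE2L2 and -0.14 for MAFG, the change from day 9 to day 12 was 0.10 for MAFG and that from day 12 to day 16 was 0.05 for NFE2L2. The test was then lost by BACH1 on day 6 (0.22, adjusted p = 0.275), BACH1 on day 12 (0.26, adjusted p = 0.155) and NFE2L2 on day 12 (0.29, adjusted p = 0.128). Single samples left out turned the sign of BACH1 from day 2 to day 4 (-0.25 to 0.0705), of NFE2L2 (-0.0286 to 0.25) and MAFG (-0.0069 to 0.077) on day 6, of MAF on day 12 (-0.41 to 0.64), of MAFK (-0.0043 to 0.14) and BACH2 (-0.51 to 0.0598) in CD43+ cells (day 6 to day 9) and of MAF (-0.27 to 0.68) and BACH2 (-0.0935 to 0.25) in CD43- cells (day 9 to day 12). Changes of the CD43 difference did so for NFE2L2 from day 6 to day 9 (-0.0433 to 0.27), for MAFG (-0.13 to 0.12) and BACH1 (-0.12 to 0.29) from day 9 to day 12 and for NFE2L2 from day 12 to day 16 (-0.28 to 0.11).

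Counts of called members moved with the pseudocount and the fold threshold. With a pseudocount of 10 the count was 0 for day 2 against day 0 (1 as reported), and in CD43+ cells 1 for day 12 against day 9 (2) and 0 for day 16 against day 12 (1). It was 1 for the day 9 to day 12 change of the CD43 difference (2), and 1 for its day 12 to day 16 change (2). At a fold above 2 the count was 3 for day 4 against day 2 (0 as reported) and 4 for day 6 CD43+ cells against day 4 (2). In CD43+ cells it was then 1 for day 9 against day 6 (0) and 3 for day 16 against day 12 (1), in CD43- cells 1 for day 12 against day 9 (0) and 3 for day 16 against day 12 (1), and it was 2 for the day 6 to day 9 change of the difference (0). With a sample left out it ran from 0 to 1 for that change (without day 9 CD43- replicate 3), from 0 to 1 from day 9 to day 12 in CD43- cells (without day 12 CD43- replicate 3) and from 1 to 2 from day 12 to day 16 in CD43+ cells (without day 12 CD43+ replicate 1).

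With the replicate number as a block within each day, BACH1 lost the test on days 6 (adjusted p = 0.0566) and 12 (adjusted p = 0.058) and the change for MAF from day 6 to day 9 did so (adjusted p = 0.0713). As an additive block over the 33 samples, the fall of BACH2 from day 0 to day 2 lost the test (adjusted p = 0.0554), and MAFK gained it from day 6 to day 9 in CD43- cells (adjusted p = 0.0402) and for the change from day 9 to day 12 (adjusted p = 0.049). The replicate blocks changed no other call. Why values moved was not tested.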
